A study of Mus musculus with 8 samples.

Results

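The Rab genes are 59 of the 35583 genes in the deposited count table, taken as every row whose symbol is Rab followed by digits and at most a letter and a digit, so that Rab effectors and Rab-like genes are left out. Bulk RNA was sequenced from sorted microglia, the resident macrophages of the brain. The tissue was the hypothalamus of wild-type mice described as young, taken 20 hours after plasma protein carrying a dye had been injected. One group is plasma-positive microglia and the other plasma-negative microglia, with 4 libraries each, and all mice had received the labelled protein. The labels give neither sex, exact age nor strain, nor whether libraries came from separate animals or pools, so p-values measure only the spread between these libraries, which may be technical.

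Rab proteins are small GTPases that switch between a GTP-bound form on membranes and a GDP-bound form held in the cytosol, and each marks particular vesicles. In macrophages, material taken up from outside passes through early endosomes marked by Rab5, is returned to the surface through Rab4 and Rab11 vesicles, or moves on to late endosomes and lysosomes marked by Rab7. Rab20 and Rab32 are known on phagosomes and lysosome-related compartments. The comparison asks whether the transcripts of these proteins differ between microglia that carried the labelled plasma protein and those that did not.

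Library totals ranged from 2963094 to 21422738 counts, the smallest being plasma-negative replicate 4. The microglial markers Cx3cr1, P2ry12, Tmem119, Csf1r, Sall1, Aif1 and Fcrls were present in every library. Cx3cr1, the fractalkine receptor, stood between 11178 and 12272 CPM (counts per TMM-scaled library size) in plasma-negative and between 10412 and 11116 CPM in plasma-positive libraries. Transcripts of other cells were found unevenly. Neuron markers (Snap25, Syt1, Rbfox3, Tubb3, Nefl and Stmn2) summed to 267 CPM in plasma-positive replicate 2 and 67.2 CPM in plasma-positive replicate 1, against 4.04 to 32.7 CPM in the plasma-negative libraries. Plasma-positive replicates 3 and 4, at 5.94 and 5.47 CPM, lay inside that range. None of these 6 was at 0 in all 8 libraries. Oligodendrocyte markers summed to between 157 and 230 CPM in plasma-negative libraries and between 222 and 514 CPM in plasma-positive ones, highest again in replicate 2. Monocyte or neutrophil markers summed to 904 CPM in plasma-positive replicate 3, where S100a8, S100a9 and Ngp led, and to at most 13.8 CPM elsewhere. Of the border macrophage markers, Cd163 and Lyve1 had 0 counts throughout, and the 6 together reached 3.61 CPM in plasma-negative and 16.5 CPM in plasma-positive libraries. Astrocyte markers summed to between 208 and 322 CPM in plasma-negative libraries and between 199 and 256 CPM in plasma-positive ones, and endothelial markers to between 18.5 and 37.0 and between 17.8 and 59.5 CPM. Most of these sums came from Slc1a3 (196 to 317 and 164 to 197 CPM) and from Pecam1. The astrocyte marker Slc1a2 stood at 19.4 and 67.5 CPM in plasma-positive replicates 1 and 2. It was at 1.27 and 2.23 CPM in replicates 3 and 4 and between 0.349 and 7.74 CPM in plasma-negative libraries. Aqp4, Gfap, Aldh1l1 and Gja1 stood at 9.76 CPM or less in every library. No marker of these other cell types was called by edgeR among those tested, while Csf1r was called higher. Genes induced by tissue dissociation (Fos, Jun, Egr1, Ier2, Atf3 and Dusp1) summed to between 193 and 245 CPM in plasma-negative libraries and between 180 and 243 CPM in plasma-positive ones. Of the 5 tested, Egr1 was called higher (edgeR, adjusted p = 0.0267), at 0 to 0.133 CPM in plasma-negative libraries and 1.79 to 12.4 CPM in plasma-positive ones. The part of these transcripts in the Rab values was not tested. In bulk samples, fewer cells of a type and less RNA per cell cannot be told apart.

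Of the 59 Rab genes, 37 had more than 3 counts in all 8 libraries and 42 passed the expression filter and were tested. Levels between genes were compared as CPM per kilobase of exon, as mean ± SD over all 8 libraries. Rab2a, which acts between the endoplasmic reticulum and the Golgi, had the highest mean at 105 ± 19.5, and it lay above the next gene in 8 of 8 libraries. Rab1a at 69.1 ± 10.1, Rab7 at 68.3 ± 8.20, Rab11a at 66.8 ± 17 and Rab1b at 65.6 ± 7.46 followed. These 4 did not separate, since Rab1a exceeded Rab7 in 3 of 8 libraries, Rab7 exceeded Rab11a in 4, and Rab11a exceeded Rab1b in 4. Next came the phagosomal Rab32 at 54.3 ± 13.5, then Rab31 at 51.6 ± 11.5, Rab14 at 44.1 ± 4.57, Rab10 at 43.1 ± 8.65 and Rab20 at 38.7 ± 6.11. Neighbours in this order did not separate either, since Rab32 exceeded Rab31 in 4 of 8 libraries. Rab31 exceeded Rab14, Rab14 exceeded Rab10 and Rab10 exceeded Rab20 in 5 each. Rab14, of endosome and Golgi traffic, had the highest CPM of all members, 531 to 707 CPM, but its merged exons are 13589 bases long.

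**Figure D1:**
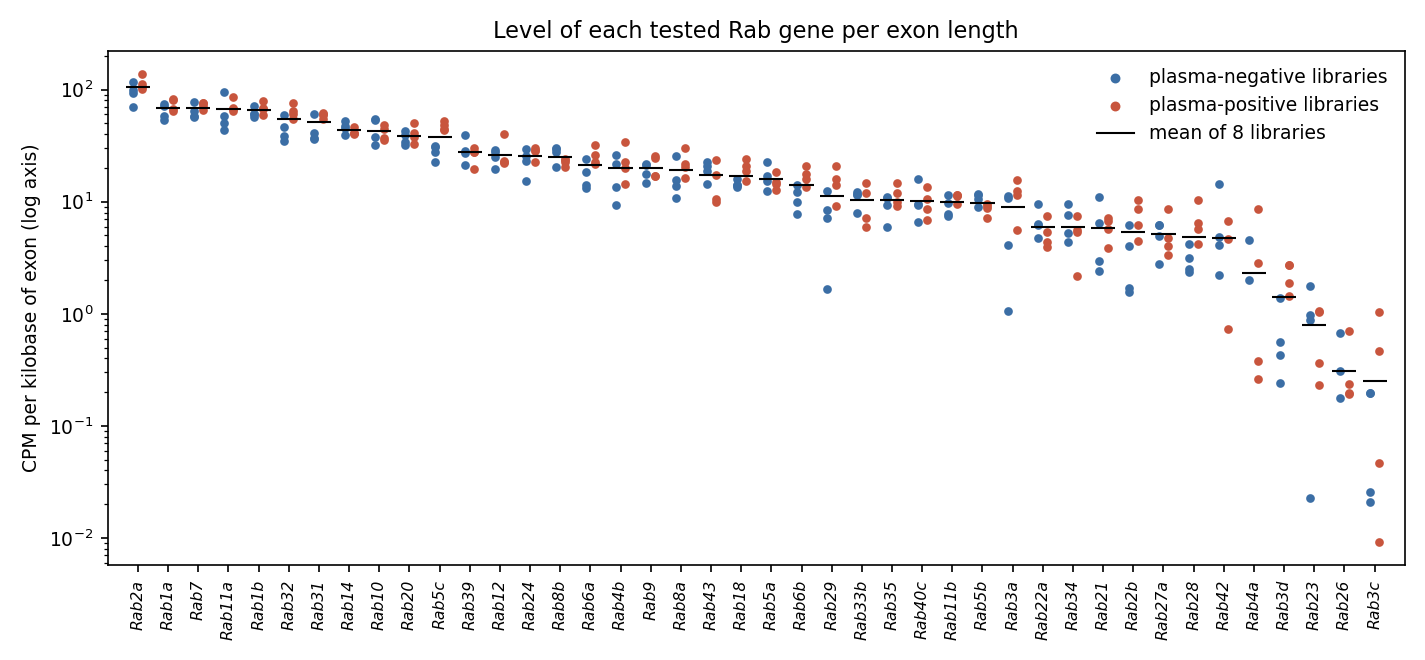
CPM per kilobase of exon (log axis) of the 42 tested Rab genes, ordered by the mean over 8 libraries (black line); each point is 1 library, and libraries at 0 (Rab4a, Rab26 and Rab42) are not drawn. Rab2a leads at 105, and the 4 genes after it lie between 65.6 and 69.1.

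No Rab gene passed the test between the groups. edgeR's quasi-likelihood test called 0 of 42 members at an adjusted p under 0.05, where it called 1.41% of all 13277 tested genes, so a count of 0 among 42 is near that background. DESeq2 and limma-voom each called 1 member, Rab5c, while DESeq2 called 5.23% and limma-voom 1.97% of all tested genes. At an unadjusted p under 0.05 in edgeR there were 9 members, all higher in plasma-positive libraries, against 13.8% of all tested genes (7.13% higher and 6.67% lower). The 9 were Rab5c, Rab28, Rab6b, Rab18, Rab32, Rab31, Rab3d, Rab2b and Rab6a. Among the 27 members with a mean of at least 32 CPM there were 6, all higher, against 24.1% of the 5176 tested genes at that level in either direction and 13.7% higher. Without plasma-negative replicate 4 the count was 9 of 44, against 14.8% of all genes then tested. It was 6 of 41 without plasma-positive replicate 2, 5 of them higher, against 11.9%, and 5 of 43 without plasma-positive replicate 1, all higher, also against 11.9%.

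Log2 changes were above 0 in 29 of 42 members, against 50.4% of all tested genes, and their median was 0.19, against 0.01. For genes of at least 32 CPM the same counts were 18 of 27 members against 56.4%, and the medians 0.18 and 0.06. The median of the Rab genes was 0.24 without plasma-negative replicate 4 and 0.19 without plasma-positive replicate 2. These counts were also taken with corrections for gene length. Across tested genes of at least 32 CPM the log2 change ran against exon length (Spearman -0.457, 5176 genes), and across the 27 Rab genes at that level the value was -0.264. These are descriptions across genes that share the same libraries. Of 18 tested members with under 3000 bases of exon, 15 lay above 0, of 14 with at least 3000 but under 5000 bases 9 did, and of 10 with at least 5000 bases 5 did. With corrections fitted per library on all tested genes, 27 of 42 members lay above 0 for exon length (median 0.08), against 47.1% of all genes, and 25 of 42 for exon length and GC content (median 0.11), against 46.3%. With the exon length correction and the replicate number as a block, 28 of 42 lay above 0 (median 0.17), against 50.1%. A correction for exon length and GC content fitted on genes of at least 32 CPM was chosen after seeing the data. With it, which is the exon length and GC correction given for single genes here, 21 of 42 members lay above 0, against 44.1% of all genes, with medians of 0.03 and -0.07.

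**Figure D2:**
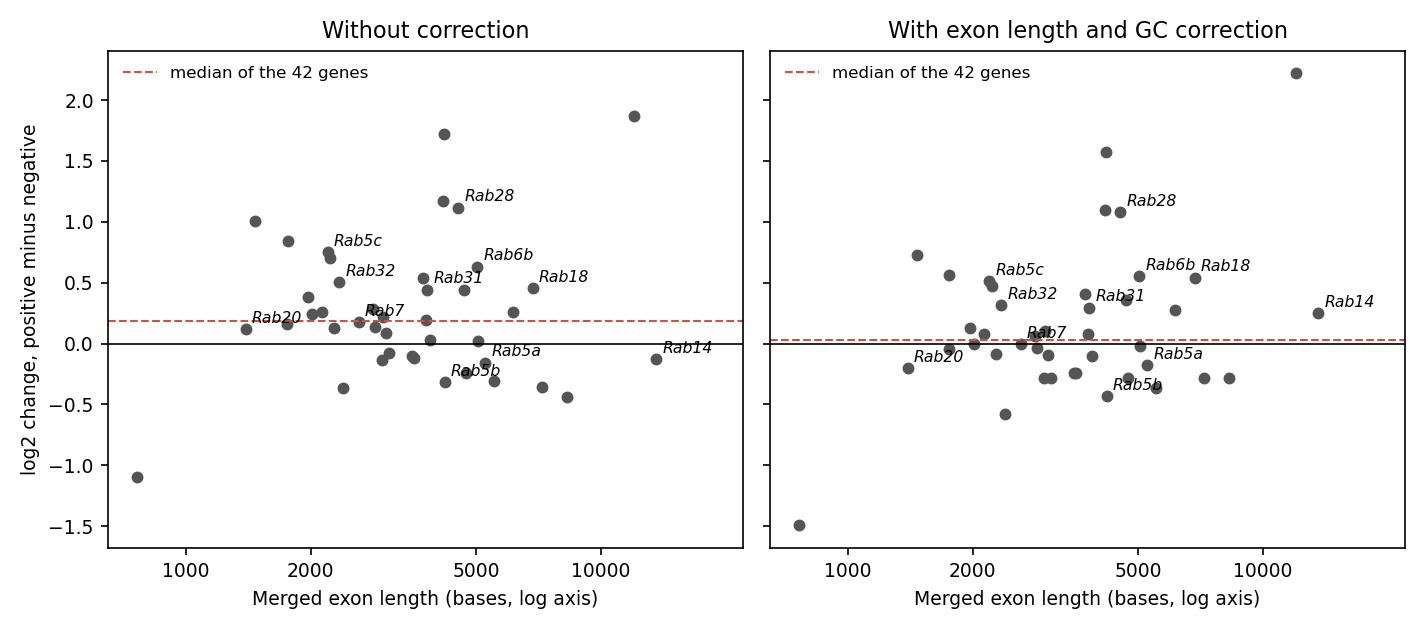
Log2 change (plasma-positive minus plasma-negative) of the 42 tested Rab genes against merged exon length (log axis), without (left) and with (right) the exon length and GC correction; the dashed line is the median. The median moves from 0.19 to 0.03, Rab5c from 0.75 to 0.51 and Rab14 from -0.13 to 0.25.

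Some changes could be bounded. The 95% interval of the change lay within 2-fold in either direction for 25 of 42 members, against 35.5% of all tested genes, and within 1.5-fold for 6. For the other members the interval reached past 2-fold in at least 1 direction.

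**Figure D3:**
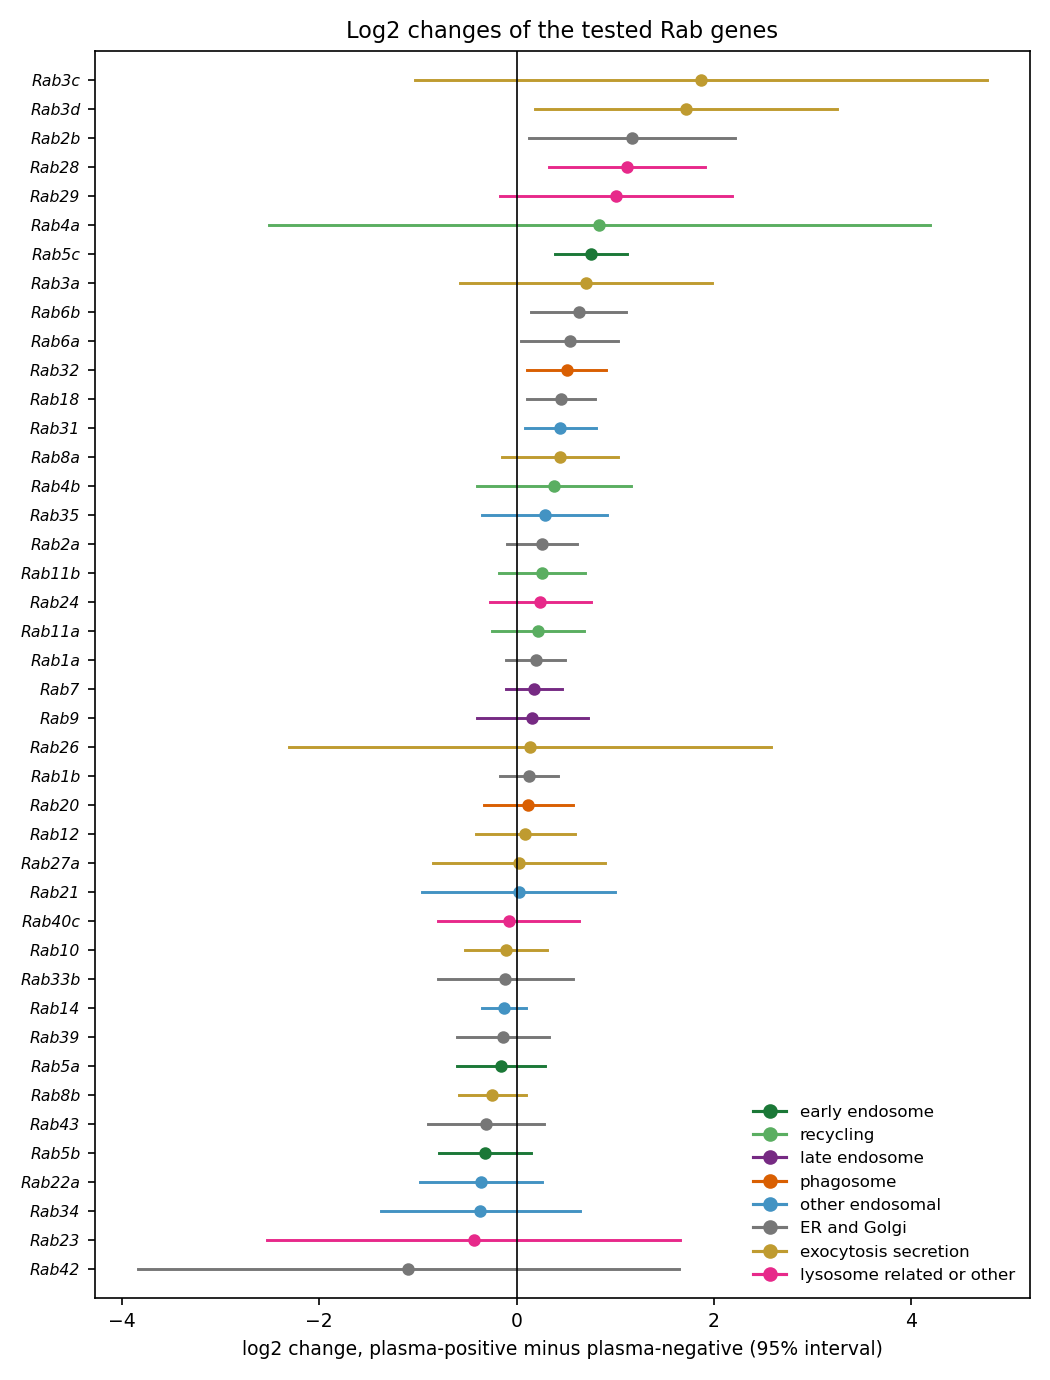
Log2 change of each tested Rab gene with its 95% interval from edgeR (points and lines, coloured by role; plasma-positive minus plasma-negative, 4 libraries each). Intervals of Rab5c (0.39 to 1.11) and 8 other genes lie above 0 before adjustment, none lies wholly below 0, and intervals of thinly counted genes such as Rab3c (-1.03 to 4.77) are wide.

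Rab5 proteins recruit the tethers and the lipid kinase that let early endosomes fuse. Rab5c (chromosome 11, 100715009 to 100738215 in mm10, as for all gene coordinates here) had the smallest adjusted p of the family. It stood at 69.2, 60.4, 49.7 and 67.0 CPM in plasma-negative replicates 1 to 4 and at 105, 98.5, 95.3 and 115 CPM in plasma-positive replicates 1 to 4. All plasma-positive libraries lay above all plasma-negative ones. The groups failed to overlap in 3 of 42 members, Rab5c, Rab28 and Rab3d, plasma-positive above in each, against 10.3% of all tested genes (5.68% with plasma-positive and 4.59% with plasma-negative above). The means were 61.5 ± 8.75 and 103 ± 8.72 CPM (SD, n = 4 each), and the log2 change was 0.75 (SE 0.17; edgeR, adjusted p = 0.0508), just above the threshold. Over the other settings, its edgeR, DESeq2 or limma adjusted p ran from 0.0025 to 0.335, the lowest with DESeq2 and the highest with a planned correction for length and GC fitted on all tested genes. Its change kept its sign in all 8 edgeR fits with 1 library omitted, with adjusted p from 0.0612 to 0.128.

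The paralogs Rab5a and Rab5b had negative estimates. Rab5a (chromosome 17, 53479234 to 53507680) stood at 89.3, 119, 80.1 and 66.3 CPM in plasma-negative and 76.2, 66.7, 96.8 and 79.2 CPM in plasma-positive libraries. These groups overlapped, with a log2 change of -0.16 (95% interval -0.60 to 0.29; edgeR, adjusted p = 0.812), and the estimate was 0.02 without plasma-negative replicate 2. Rab5b (chromosome 10, 128677175 to 128696264) stood at 37.9, 48.6, 49.4 and 44.8 CPM in plasma-negative and 36.6, 40.2, 30.1 and 38.3 CPM in plasma-positive libraries. The groups overlapped only through plasma-negative replicate 1, which lay below plasma-positive replicates 2 and 4. The log2 change of Rab5b was -0.32 (95% interval -0.78 to 0.15; edgeR, adjusted p = 0.576).

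Rab5c thus made up a larger part of the Rab5 transcripts in plasma-positive libraries. Per kilobase, its share of the 3 paralogs was 54.8%, 44.7%, 45.6% and 56.8% in the plasma-negative group and 67.4%, 66.9%, 63.0% and 68.5% in the plasma-positive group. The share of Rab5b was 19.5% ± 3.3 and 12.2% ± 1.6 (SD, n = 4), also without overlap, while that of Rab5a, 30.0% ± 5.4 and 21.4% ± 3.6, overlapped. These shares were not tested, and they restate the CPM values given above. Shares within Rab1, Rab2, Rab4, Rab6, Rab8 and Rab11, and of Rab32 beside Rab29, all overlapped. That of Rab8a was 37.1% ± 6.1 in the plasma-negative and 48.8% ± 5.2 in the plasma-positive group (SD, n = 4). The exons of Rab5c span 2194 bases, those of Rab5a 5270 and those of Rab5b 4201. With the exon length and GC correction the log2 changes were 0.51, -0.18 and -0.43 for Rab5c, Rab5a and Rab5b, and their edgeR adjusted p was at least 0.239. The summed level of the 3 was 195 ± 23.1 and 220 ± 11.3 CPM (SD, n = 4), and the groups overlapped.

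**Figure D4:**
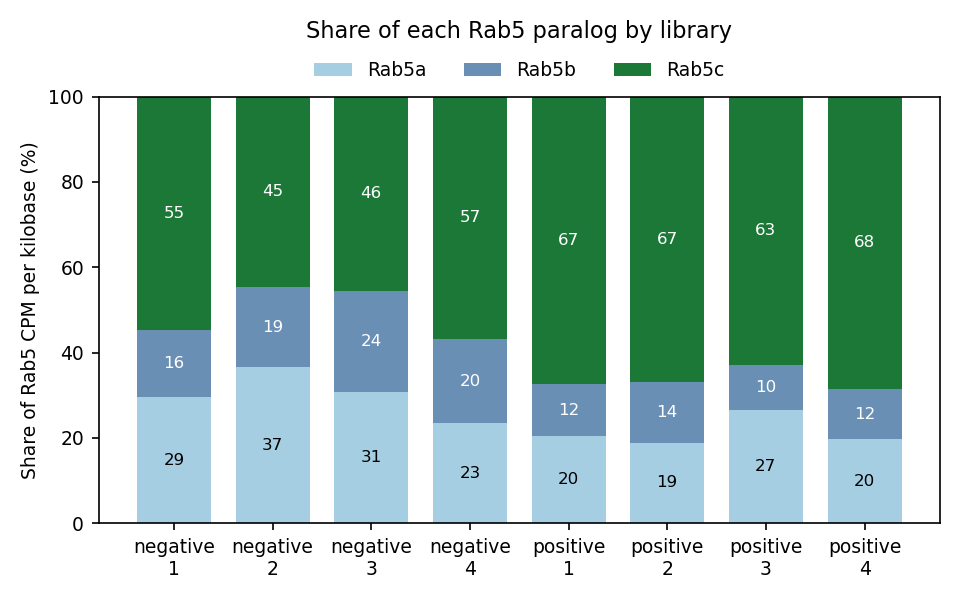
Share of each Rab5 paralog (%) in their summed CPM per kilobase, for the 4 plasma-negative and 4 plasma-positive libraries. The Rab5c part lies between 44.7% and 56.8% for plasma-negative libraries and between 63.0% and 68.5% for plasma-positive ones.

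Sequences upstream of the 3 Rab5 genes are shown because the paralogs of this single role had estimates of opposite sign. Each is the 250 bases before the RefSeq start (GRCm38.p6), 5′ to 3′ on the strand of the gene, with matches to the motifs searched in capitals. The Rab5a window is chr17:53478984-53479233 on the plus strand, and those of Rab5b and Rab5c are chr10:128696269-128696518 and chr11:100738216-100738465 on the minus strand.
Rab5a: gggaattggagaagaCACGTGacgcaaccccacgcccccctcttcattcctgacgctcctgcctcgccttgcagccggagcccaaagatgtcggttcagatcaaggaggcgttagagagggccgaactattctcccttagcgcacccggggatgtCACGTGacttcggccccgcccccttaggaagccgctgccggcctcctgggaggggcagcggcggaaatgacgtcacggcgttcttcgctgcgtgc
Rab5b: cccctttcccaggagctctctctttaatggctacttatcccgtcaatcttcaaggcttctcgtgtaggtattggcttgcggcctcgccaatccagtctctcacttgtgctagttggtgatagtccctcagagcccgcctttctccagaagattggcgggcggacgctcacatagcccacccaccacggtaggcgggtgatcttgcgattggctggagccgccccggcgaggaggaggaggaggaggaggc
Rab5c: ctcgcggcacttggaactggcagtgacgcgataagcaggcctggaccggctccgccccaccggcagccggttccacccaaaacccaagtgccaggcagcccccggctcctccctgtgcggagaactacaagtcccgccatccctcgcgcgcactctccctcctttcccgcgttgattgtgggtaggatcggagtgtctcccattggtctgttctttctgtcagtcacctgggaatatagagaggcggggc
Both strands were searched for the E-box CACGTG, bound by the lysosomal gene regulator TFEB among other factors, the ETS core CCGGAAG, the PU.1 sequence GAGGAAGT and the AP-1 sequence TGANTCA. The PU.1 sequence is itself an ETS site, with other letters than the ETS core. The capitals in the Rab5a window are E-box letters, found at 2 places, and none of the 4 motifs is spelled in the Rab5b and Rab5c windows. Of 32851 windows of this length, 6.02% hold the E-box, 6.91% the ETS core, 2.44% the PU.1 sequence and 6.75% the AP-1 sequence. Of 46 windows at 38 tested Rab genes, 5, 3, 2 and 1 hold them, in the same order. The Rab windows were richer in bases G and C, with a median of 63.0% against 52.4%.

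Rab4 and Rab11 return receptors to the cell surface, Rab4 by the fast route from early endosomes and Rab11 through the recycling endosome. All 4 members had estimates above 0 and none passed the test. Rab11a (chromosome 9, 64715299 to 64737758) stood at 150, 132, 175 and 284 CPM in plasma-negative and 192, 207, 202 and 256 CPM in plasma-positive libraries. Plasma-negative replicate 4 had the highest value of all 8, and the log2 change was 0.22 (95% interval -0.25 to 0.69; edgeR, adjusted p = 0.731). Without that library the estimate was 0.49. The estimate of Rab11a was 0.09 without plasma-negative replicate 2, 0.12 without plasma-positive replicate 4 and 0.10 with the exon length and GC correction. Rab11b (chromosome 17, 33742484 to 33760530) stood at 45.7, 70.8, 47.6 and 60.2 CPM in plasma-negative and 70.4, 58.2, 70.2 and 69.1 CPM in plasma-positive libraries, a log2 change of 0.26 (95% interval -0.17 to 0.69; edgeR, adjusted p = 0.636). Its highest library was plasma-negative replicate 2, so the groups overlapped. Per kilobase, Rab11a made up 86.3% ± 4.9 of the pair in the plasma-negative group and 86.7% ± 1.7 in the plasma-positive group (SD, n = 4).

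Rab4b (chromosome 7, 27168424 to 27178896) was the main Rab4 transcript, at 26.4, 18.4, 42.6 and 51.1 CPM in plasma-negative and 28.3, 44.2, 67.0 and 39.1 CPM in plasma-positive libraries. The groups overlapped widely, with a log2 change of 0.38 (95% interval -0.40 to 1.16; edgeR, adjusted p = 0.717). The estimate of Rab4b was 0.12 without plasma-positive replicate 3, 0.62 without plasma-negative replicate 4 and 0.13 with the exon length and GC correction. Of its exon bases 65.0% also belong to Gm21983, so its counts are uncertain. Rab4a (chromosome 8, 123805985 to 123835287) was at 0 in plasma-negative replicates 1 and 4 and at 3.52 and 8.03 CPM in replicates 2 and 3, and it was at 4.95, 15, 0.457 and 0.670 CPM in plasma-positive libraries. Its log2 change of 0.84 had an interval from -2.51 to 4.19 (edgeR, adjusted p = 0.877), and without plasma-positive replicate 2 the estimate was -0.54. These counts were too uneven to bound a change.

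Rab7 drives late endosomes and phagosomes to fuse with lysosomes, and Rab9 returns mannose 6-phosphate receptors from late endosomes to the Golgi. Rab7 (chromosome 6, 87999106 to 88045270) stood at 169, 201, 148 and 152 CPM in plasma-negative and 199, 199, 172 and 188 CPM in plasma-positive libraries. The groups overlapped, and the highest library was plasma-negative replicate 2. The log2 change was 0.18 with an interval from -0.11 to 0.46 (edgeR, adjusted p = 0.619), so a change of 1.5-fold lay outside it in both directions. Rab9 (chromosome X, 166457253 to 166479867) stood at 30.9, 25.5, 36.9 and 38.0 CPM in plasma-negative and 44.3, 42.7, 29.5 and 29.9 CPM in plasma-positive libraries, with a log2 change of 0.16 (95% interval -0.40 to 0.72; edgeR, adjusted p = 0.858). Within the plasma-positive group replicates 1 and 2 were above the whole plasma-negative range and replicates 3 and 4 inside it. With the exon length and GC correction both estimates lay on the other side of 0, at -0.0077 for Rab7 and -0.05 for Rab9.

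The close relatives Rab7b and Rab9b (chromosome 1, 131688695 to 131715439, and chromosome X, 136858147 to 136868755) were not tested. Rab7b had 101 counts in plasma-positive replicate 2, 8 in plasma-negative replicate 1, 1 in plasma-negative replicate 2 and 0 in the other 5 libraries. Rab9b had 43 and 52 counts in plasma-positive replicates 2 and 3, 2 in replicate 1 and 0 elsewhere.

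Rab32 and Rab20 are known for their place on maturing phagosomes, Rab32 also for lysosome-related organelles and Rab20 as an interferon-inducible gene of macrophages. Rab32 (chromosome 10, 10545002 to 10558265) stood at 82.1, 90.4, 138 and 109 CPM in plasma-negative and 150, 128, 141 and 177 CPM in plasma-positive libraries. Plasma-negative replicate 3 lay above plasma-positive replicate 2, which was the sole overlap. The log2 change was 0.51 (SE 0.18; 95% interval 0.11 to 0.90; edgeR, adjusted p = 0.226), and it was 0.32 with the exon length and GC correction. Rab20 (chromosome 8, 11453518 to 11478710) stood at 44.5, 59.7, 47.4 and 55.2 CPM in plasma-negative and 45.2, 57.0, 69.8 and 52.1 CPM in plasma-positive libraries. Only plasma-positive replicate 3 exceeded the plasma-negative range. Its log2 change was 0.12 (95% interval -0.33 to 0.57; edgeR, adjusted p = 0.870) and -0.20 with the exon length and GC correction, and 25.6% of its exon bases also belong to E230013L22Rik. Rab38, the closest relative of Rab32, had 0 counts in all 8 libraries, where the limit that a count of 0 allows is 3 counts, or 0.133 CPM in the deepest library and 1.01 CPM in the shallowest.

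The 250 bases before the RefSeq starts of these phagosomal genes hold a single match each to the motifs searched above. It is the E-box CACGTG in the Rab20 window and the PU.1 sequence GAGGAAGT in the Rab32 window. Of these windows, 70 bases for Rab20 and 58 bases for Rab32 lie in the first exon of the GENCODE annotation, so their letters are not printed. Their G and C content was 65.2% for Rab20 and 55.6% for Rab32. A match is a description of the letters and not a site of binding.

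**Figure D5:**
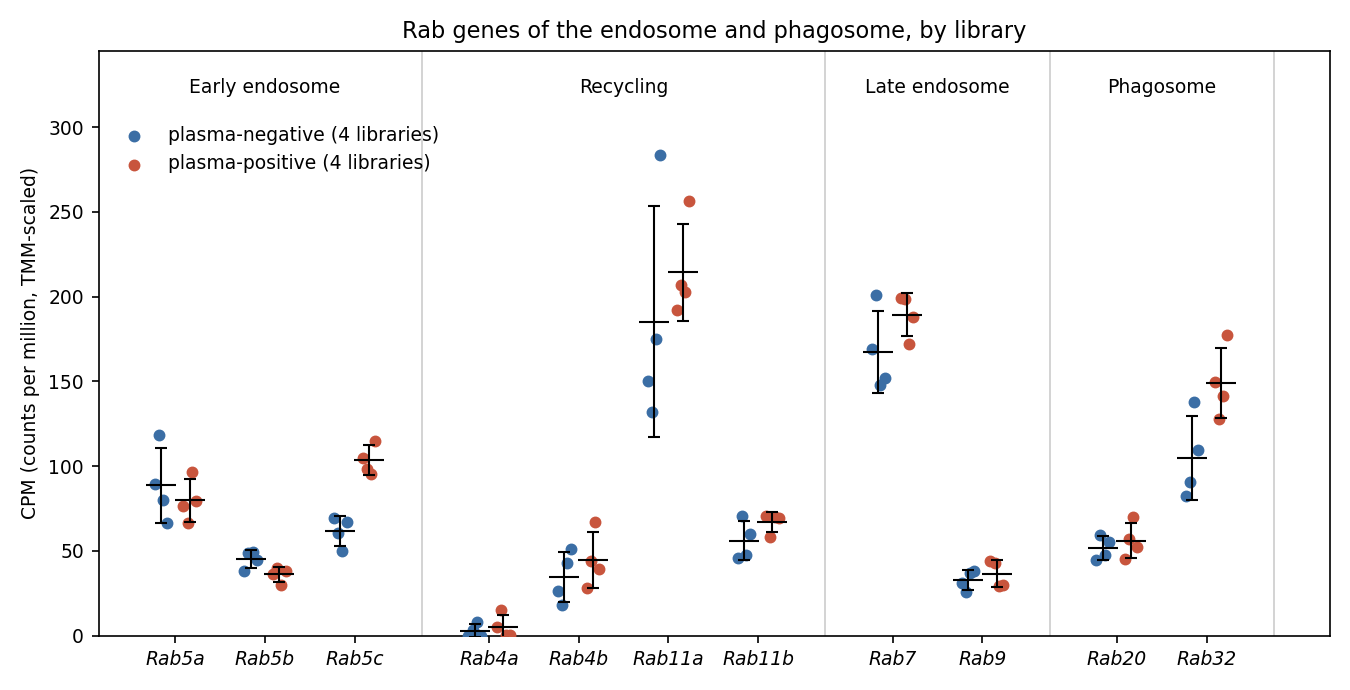
CPM of the tested Rab genes of early endosome, recycling, late endosome and phagosome; each point is 1 library (4 plasma-negative, 4 plasma-positive), black lines are the mean and SD. Rab5c is the sole gene here whose groups do not overlap, from 49.7 to 69.2 against 95.3 to 115 CPM.

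Among other endosomal members (Rab14, Rab15, Rab17, Rab21, Rab22a, Rab25, Rab31, Rab34 and Rab35), 6 were tested, with estimates from -0.37 to 0.44 on the log2 scale. Rab31 (chromosome 17, 65651729 to 65772752), which carries cargo between the trans-Golgi and endosomes, stood at 137, 157, 142 and 232 CPM in plasma-negative and 238, 232, 228 and 207 CPM in plasma-positive libraries. Plasma-negative replicate 4 alone reached the plasma-positive range. The log2 change was 0.44 (SE 0.17; edgeR, adjusted p = 0.249), and without plasma-negative replicate 4 it was 0.64 and passed (edgeR, adjusted p = 0.0319). Rab14 had a change of -0.13 (95% interval -0.35 to 0.09), the narrowest interval of the 42, and 0.25 with the exon length and GC correction. The summed level of these 9 genes was 912 ± 114 and 912 ± 64.8 CPM (SD, n = 4).

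Members of the endoplasmic reticulum and Golgi were 16, of which 11 were tested and 4 had an unadjusted p under 0.05, against 13.8% of all tested genes. Rab6b (chromosome 9, 103111787 to 103185276), of retrograde Golgi traffic, stood at 39.4, 49.7, 71.3 and 61.2 CPM in plasma-negative and 68.5, 80.8, 105 and 88.7 CPM in plasma-positive libraries. A single pair overlapped, plasma-negative replicate 3 and plasma-positive replicate 1, and the log2 change was 0.63 (SE 0.22; edgeR, adjusted p = 0.212). Rab18 (chromosome 18, 6733905 to 6794429), known from lipid droplets and the endoplasmic reticulum, stood at 109, 92.7, 96.6 and 95.9 CPM in plasma-negative and 129, 164, 142 and 105 CPM in plasma-positive libraries. Plasma-positive replicate 4 lay inside the plasma-negative range, and the log2 change was 0.45 (SE 0.16; edgeR, adjusted p = 0.215). Its exons are long, 6850 bases, and with the exon length and GC correction its change was 0.54, the smallest p of the family there (edgeR, adjusted p = 0.225). Rab6a had a change of 0.54 (edgeR, adjusted p = 0.309). Rab2b had 1.17 (edgeR, adjusted p = 0.297), but 64.0% of its exon bases also belong to Gm43766 or Tox4. The abundant Rab1a, Rab1b and Rab2a had changes of 0.20, 0.13 and 0.26, and of 0.08, -0.09 and 0.08 with the exon length and GC correction. The remaining tested members, Rab33b, Rab39, Rab42 and Rab43, had changes from -1.10 to -0.11. None of these genes passed the test. The lowest of these, Rab42, was at -0.33 without plasma-negative replicate 2 and at -1.86 without plasma-positive replicate 4. Rab43 shares 75.4% of its exon bases with Gm45140.

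Of 14 members of exocytosis and secretion, 9 were tested. Rab8a and Rab8b, which carry cargo to the surface, had changes of 0.44 and -0.25, Rab10 of -0.11, Rab12 of 0.09 and Rab27a of 0.03, none past the test in edgeR, with adjusted p of at least 0.523. With 1 library left out, the change of Rab8a ranged from 0.26 to 0.73. Rab27a was highest in plasma-positive replicate 3, at 33.2 CPM against 10.8 to 24.2 CPM in the other libraries, the library that also held the neutrophil markers at 904 CPM. The part of those transcripts in this value was not tested. Rab3d, of secretory granules, stood at 5.80, 1.01, 1.80 and 2.36 CPM in plasma-negative and 11.3, 11.3, 5.99 and 7.82 CPM in plasma-positive libraries, so its groups did not overlap. Its log2 change was 1.72 (SE 0.70; edgeR, adjusted p = 0.296), and 2.43 without plasma-negative replicate 1. The lowest value for Rab3d, 0.90, came from limma on log2(RPKM + 1). Rab3a and Rab3c, the synaptic vesicle Rabs, had their highest values, 34.7 and 12.6 CPM, in plasma-positive replicate 2, where neuron markers summed to 267 CPM. Their part in these values was not tested, and the log2 changes of 0.70 and 1.87 had intervals from -0.58 to 1.98 and from -1.03 to 4.77. Without plasma-positive replicate 2 the change of Rab3c was 0.68. Rab26 was near the floor, at most 1.98 CPM.

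The last 7 members were grouped as lysosome-related or other, and the roles among them include autophagy, cilia and lysosome-related traffic. Rab28 (chromosome 5, 41624976 to 41708157), linked to cilia and photoreceptors, stood at 14.4, 11.3, 18.8 and 10.8 CPM in plasma-negative and 47.1, 18.9, 29.2 and 25.6 CPM in plasma-positive libraries. The groups did not overlap, but plasma-negative replicate 3 and plasma-positive replicate 2 nearly met, and the log2 change was 1.12 (SE 0.36; edgeR, adjusted p = 0.177). Rab29, a partner of the kinase LRRK2, had a change of 1.01 (95% interval -0.17 to 2.18). Rab24 had 0.24, Rab40c -0.08 and Rab23 -0.44, and 62.4% of the exon bases of Rab24 also belong to Prelid1.

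The 17 members that were not tested were Rab3b, Rab7b, Rab9b, Rab13, Rab15, Rab17, Rab19, Rab25, Rab27b, Rab30, Rab33a, Rab36, Rab37, Rab38, Rab39b, Rab40b and Rab44. Rab17, Rab38 and Rab44 had 0 counts throughout, and Rab30 and Rab37 had 2 counts each, in a single library. Counts of the others came from few libraries. In plasma-positive replicate 2, 9 of the 17 exceeded 3 counts, against 4 in plasma-positive replicate 1, 2 each in plasma-positive replicates 3 and 4, and 0 to 3 in plasma-negative libraries. Rab15, Rab33a and Rab39b exceeded 3 counts in that library alone, with 143, 30 and 53 counts, Rab36 in plasma-positive replicate 3 alone with 126, and Rab25 in plasma-positive replicate 1 alone with 18. Replicate 2 is also the library with the highest neuron markers, whose part in these counts was not tested.

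Over all 59 genes, Rab transcripts made up 3218, 3484, 3080 and 3790 CPM in plasma-negative and 3824, 3791, 3791 and 3683 CPM in plasma-positive libraries. The highest plasma-negative library, replicate 4, lay inside the plasma-positive range. The means were 3393 ± 313 and 3772 ± 61.4 CPM (SD, n = 4), a log2 ratio of 0.15, which was not tested.

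Genes that act on Rabs were read from 7 lists of 157 symbols, 156 of them in the table and 138 tested. Called in edgeR were 0 higher and 1 lower, 1 of 138, against 1.41% of all tested genes, and 4 higher and 15 lower had an unadjusted p under 0.05, against 7.13% and 6.67% of all tested genes. The gene called was Sbf2, a DENN-domain relative of the myotubularins listed among the Rab exchange factors. Sbf2 fell, with a mean of 105 ± 21.4 CPM in the plasma-negative and 50.9 ± 8.87 CPM in the plasma-positive group (SD, n = 4), and its log2 change was -1.05 (SE 0.20; edgeR, adjusted p = 0.0266). Its exons span 14783 bases, it still passed when plasma-negative replicate 2 or 4 was left out but not when any of the other 6 was (edgeR, adjusted p up to 0.0903), and with the exon length and GC correction its change was -0.65 (edgeR, adjusted p = 0.208).

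The lists leaned in different directions, and their median log2 change is given beside 0.01 for all tested genes. Early endosome effectors of Rab5 had a median of -0.37 over 15 tested genes, 5 of them above 0, against 50.4% of all tested genes. Also above 0 were 10 of 14 recycling, 10 of 19 late endosome and 6 of 13 phagosome and lysosome-related effectors. The counts were 11 of 33 for exchange factors, 11 of 34 for GTPase-activating proteins and 7 of 10 for prenylation and membrane recycling. Rabep1, which binds Rab5 and Rab4, averaged 65.3 ± 7.84 CPM in the plasma-negative and 40.7 ± 5.94 CPM in the plasma-positive group (SD, n = 4) with no overlap, and its log2 change was -0.68 (edgeR, adjusted p = 0.126), and Ankfy1 had -0.68 (edgeR, adjusted p = 0.252). Recycling effectors had a median of 0.42 over 14 genes. Exoc6, an exocyst subunit, averaged 39.3 ± 10.9 CPM in the plasma-negative and 72.5 ± 22.1 CPM in the plasma-positive group (SD, n = 4), and its log2 change was 0.89 (edgeR, adjusted p = 0.155), while Wdr44, which binds Rab11, had -0.68 (edgeR, adjusted p = 0.161). Late endosome effectors had a median of 0.05 over 19 genes, with Snx10 at -0.48 and Fyco1 at -0.68. Phagosome and lysosome-related effectors had -0.02 over 13 genes, with the kinase Lrrk1 at -0.70 (edgeR, adjusted p = 0.0805, and 0.0411 without plasma-negative replicate 4) and the Vps9-domain gene Vps9d1 at -0.76 (edgeR, adjusted p = 0.0867).

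Exchange factors had a median of -0.18 over 33 tested genes and GTPase-activating proteins -0.24 over 34, of which Grtp1 had 0.40 (edgeR, adjusted p = 0.101) and Rabgap1 -0.86 (edgeR, adjusted p = 0.304). Genes of prenylation and membrane recycling had a median of 0.16 over 10 genes, with Rabac1 at 0.24 and Rabif at 0.58. With the exon length and GC correction Rabac1 was at -0.03 and Rabif at 0.39. Median exon length was 8279 bases for early endosome effectors, 6868 for exchange factors and 6656.5 for GTPase-activating proteins, against 3525.5 for the tested Rab genes and 3975.5 for all tested genes. With the exon length and GC correction the medians of these 3 lists were -0.30, -0.08 and -0.13, beside -0.07 for all genes. Recycling effectors were also long, with a median of 6238 bases, and their median change was 0.59 with the correction. Prenylation and recycling genes, with a median of 4032 bases, had -0.06. Late endosome effectors (5186 bases) had 0.04 and phagosome and lysosome-related effectors (5153 bases) -0.08.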

How the data were processed

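Smart-seq2, which copies whole transcripts from little RNA and adds no molecular identifiers, gave the 8 libraries, per the labels' protocols. The submitters' processing notes name bcl2fastq, Trim Galore, STAR and HTSeq and the build mm10, without versions. The deposited counts are whole numbers per gene, and per the file headers only top-hit alignments entered them; the treatment of strand and of multi-mapping reads is not given in the sources used here. The deposited RPKM values are the authors' counts scaled by gene length and library size for the same genes, and were used only in alternatives. Exon length, overlap of exons, and GC content of the longest transcript came from GENCODE M21, which holds 35546 of the 35583 genes and gives all 59 Rab genes the same coordinates. Promoter windows came from RefSeq, where 48 Rab symbols matched.

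Counts were fitted over all genes with edgeR 4.0.16 in R 4.3.3 (TMM factors, default filter by group, quasi-likelihood F test, Benjamini-Hochberg adjustment over 13277 genes, called at an adjusted p under 0.05). The SE was derived from the log2 change and its F statistic. Intervals are 95% and cover the spread between these libraries, and floors of 3 counts cover counting error only. Alternatives were other factors, other filters, DESeq2 1.42.0, limma 3.58.1 (voom with quality weights, and log2 of RPKM plus 1 or 0.1), the replicate number as a block, loess corrections for exon length and GC content (span 0.3), and each library left out.

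The members, roles and lists were chosen with earlier results of these data known. Values per library are given for the members of the early endosome, recycling, late endosome and phagosome roles, and for the 6 uncalled members with the smallest p; from each list up to 6 called genes are named, or the 2 with the smallest p. Other members given by library or singled out were chosen after their values were seen. In simulated counts for this comparison over 13277 genes, edgeR called 33 of 196 genes changed by 1 on the log2 scale (16.8%) and 109 of 194 changed by 2 (56.2%). The changed genes were drawn from all tested genes and without a trend by exon length, so these shares are not those of the Rab genes. With such a trend added, 225 of 345 calls were false in edgeR, and 5 of 115 with the exon length and GC correction.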

Additional observations from a re-analysis of the deposited data

Results flagged for a closer look

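Rab11b in plasma-positive replicate 2 stood at 58.2 CPM, far from the other 3 plasma-positive libraries, of which the nearest was at 69.1 CPM. It was the only such value among 46 groups of 4 libraries examined (named Rab genes, summed levels and Rab5 shares), and chance gives about 5% of groups.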

How the results depend on the processing

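The count of Rab genes called higher was 0 and turned to 1, Rab5c, with DESeq2, with limma-voom, with limma on log2(RPKM + 1) and log2(RPKM + 0.1), with upper-quartile factors and with the filter of at least 1 CPM in 4 libraries. When each library was left out it ranged from 0 to 1, the 1 being Rab31 without plasma-negative replicate 4. The count called lower was 0 in every setting run. Of all tested genes, 187 were called, against 694 with DESeq2, 447 and 432 with limma on RPKM, 261 with limma-voom, 215 with upper-quartile factors, 211 of 12800 with the 1 CPM filter, 16 and 17 with the planned length and length-with-GC corrections, 69 and 68 with those fitted on genes of at least 32 CPM, 74 with the replicate block, 3 with length correction and block, and 66 to 203 without single libraries (203 without plasma-negative replicate 4, and at most 93 without any other). Library totals only moved the median of all genes to -0.11, and limma on RPKM to 0.11 and 0.16; the Rab median was then 0.07, 0.29 and 0.38. The split of all calls was 112 higher and 75 lower, against 64 and 163 with totals only, 90 and 82 with RLE factors, and 388 and 59 with limma on log2(RPKM + 1).

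The estimate of Rab20 turned to -0.14 with the planned length and GC correction, and to -0.17 and -0.20 with length alone and length with GC on genes of at least 32 CPM. Under these last 2 settings Rab7 turned to -0.0078 and -0.0077 and Rab9 to -0.078 and -0.045. Without single libraries, Rab20 ranged from -0.0029 to 0.21, Rab4a from -0.54 to 2.09 and Rab5a from -0.27 to 0.018. Of the 42 tested members, 25 kept the sign of their estimate in every setting that fitted them, Rab5c, Rab28, Rab32, Rab31, Rab18 and Rab6b among them. The 17 others had the other sign in at least 1, among them Rab14, Rab1b, Rab10, Rab12 and Rab24, and the cause of the turns was not tested.

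With the replicate block 0 Rab genes were called, and Rab5c had 0.76 (edgeR, adjusted p = 0.108). Replicate numbers showed little sign of pairing. Deviations of same-numbered libraries had a mean correlation of 0.0167 across genes (0.0109 to 0.0315), against -0.0056 for different numbers. Only 1 of 4 plasma-negative libraries correlated best with its own number. These correlations take in thinly counted genes, so they do not settle whether libraries were paired. The floor of 3 counts was 1.01 CPM in plasma-negative replicate 4, the shallowest library, and at most 0.335 CPM in the others.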
